A study of Homo sapiens with 10 samples.

Results

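K562 and HepG2 are established human cancer cell lines with rearranged chromosomes, labelled as AML erythroleukemic and hepatocellular carcinoma cells. The libraries described are the 4 of the 10 in the series that are titled H2AX, chosen by title alone: K562 replicates 1 and 2 (R1, R2) and HepG2 replicates 1 and 2. All 4 were made by CUT&RUN from untreated cells, in DMEM with serum. Although titled H2AX, their antibody label names a rabbit polyclonal antibody to histone H4. The other 6 libraries followed 6 Gy of gamma rays from a 60Co source: gamma-H2AX in K562 at 1 h and 24 h, gamma-H2AX in HepG2 at 1 h, and H3K27me3 in K562 at 1 h. They are used here to measure places found in the untreated libraries, to compare the spread within arms, and in an alternative fit of all 10 libraries. The labels do not say whether replicates are separate cultures.

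In CUT&RUN an antibody tethers micrococcal nuclease to chromatin, and the DNA cut free beside it is sequenced. H2AX is a variant of histone H2A spread through chromatin, and its phosphorylated form, gamma-H2AX, marks chromatin around DNA double-strand breaks. Reads from a histone present nearly everywhere depend on how much DNA of a region the cells carry and on how readily its chromatin is cut and recovered, so an unirradiated histone track serves as the background for gamma-H2AX. Cancer lines gain, lose and amplify whole chromosomes and parts of them. K562 is known for a deletion on the short arm of chromosome 9 and for amplified stretches of 9q and 22q that carry the BCR-ABL1 fusion, and HepG2 for gains that include chromosomes 2, 14, 17 and 20.

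The deposited tracks came to 45.9 and 45.8 in the K562 libraries and 42.6 and 43.7 in the HepG2 libraries, counted in 1e6 reads and taking 41 bp as the read length. Below, a level is the mean depth of a region divided by the mean depth of that library over the autosomes, so levels are relative and carry no absolute copy number. A 100-kb window held about 1570 to 1678 reads. Over 27761 such windows the log2 ratio of the 2 replicates had an SD of 0.108 in K562 and 0.0901 in HepG2, above the 0.0498 and 0.0512 that read sampling gives. The log2 ratio of K562 to HepG2 had an SD of 0.612 over the same windows. Its 5th and 95th percentiles were -0.97 and 0.88, so the lines differed far more than their replicates did.

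The mean levels of HepG2 arms fell on a ladder. The 2 arms of chromosome X, at 0.428 and 0.431 in R1 and 0.433 and 0.441 in R2, formed the lowest rung. In units of their mean in the same library, 30 arms in R1 lay between 1.64 and 2.23 units, 7 arms (2p, 2q, 6p, 6q, 16p, 16q and 17q) between 2.81 and 3.19, and both arms of chromosome 20 at 4.11 and 3.91. No arm fell between these groups, and in R2 all 41 arms kept their group, at 1.55 to 2.20, 2.69 to 3.15, and 4.09 and 3.77 units. The lowest members of the largest group were 19p (1.64 units) and 19q (1.74 units). These values are means over whole arms and need not hold along an arm. On 6q, 16p and 17q the HepG2 level changed within the arm, as described further on. In the HepG2 gamma-H2AX library the spacing was looser: the same 30 arms spanned 1.33 to 2.22 units, the 7 arms 2.31 to 3.05, and chromosome 20 read 3.80 on the short arm and 3.27 on the long arm. Of the gains listed for HepG2, chromosomes 2, 17 (on its long arm) and 20 stood out, while 14q was the highest of the 30 arms at 2.23 and 2.20 units, close to its neighbours 11q (2.23 and 2.16) and 3q (2.21 and 2.18). K562 arms ranged from a mean level of 0.495 at 9p to 1.54 at 22q.

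**Figure D1:**
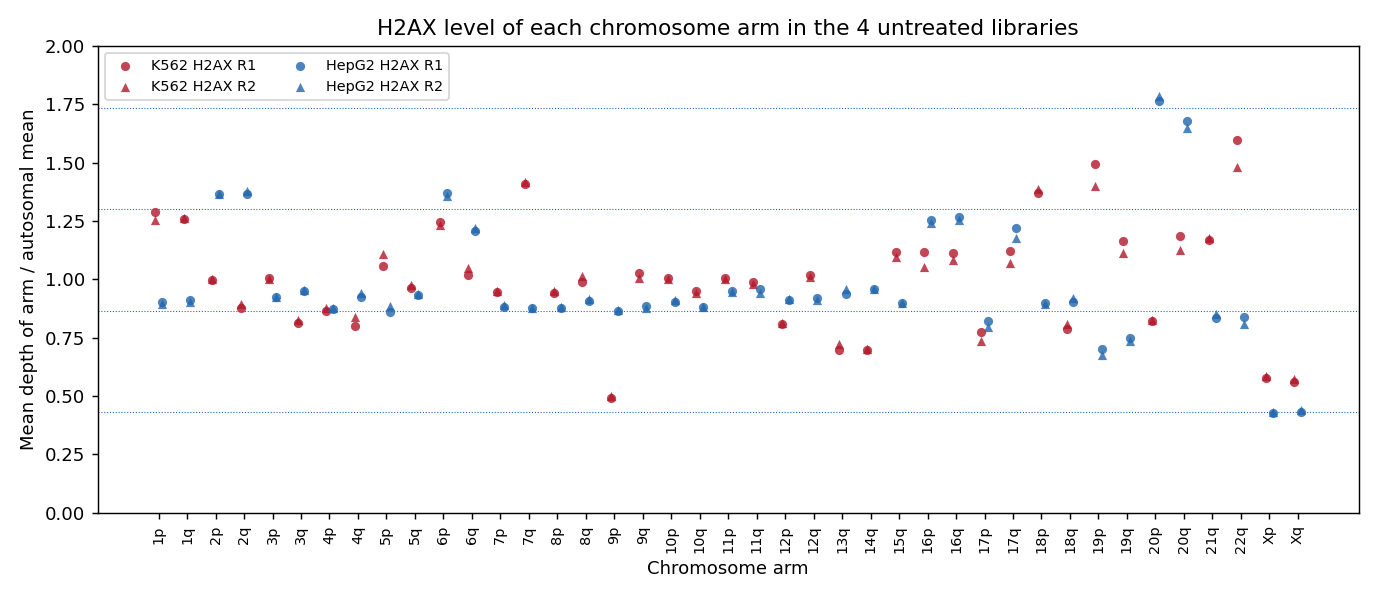
Level of each chromosome arm (mean depth over the autosomal mean) in the 4 untreated libraries, K562 in red and HepG2 in blue, circles for R1 and triangles for R2. Dotted lines mark 1, 2, 3 and 4 times the mean HepG2 level of the arms of chromosome X. HepG2 arms gather near these lines, with 20p at 1.76 and 1.79, while K562 arms lie at and between them.

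The difference between lines passed the test at 40 of 41 arms, which is 97.6% of those tested (limma, Benjamini-Hochberg adjusted p under 0.05). In 23 arms K562 was higher (56.1%) and in 17 lower (41.5%), and at each of the 40 arms both K562 libraries lay on the same side of both HepG2 libraries. The exception was 4p, where the lines overlapped, with K562 at 0.864 and 0.876 and HepG2 at 0.872 and 0.878 (limma adjusted p = 0.560). With so small a spread between replicates nearly any arm passes, so the size carries more than the call: 19 arms (46.3%) passed with a difference of at least 0.25 on the log2 scale, 12 higher (29.3%) and 7 lower (17.1%) in K562. When each arm was taken as the median of its windows in place of the mean of its bins, 32 arms passed, 15 higher and 17 lower. With all 10 libraries in 1 fit, 25 arms passed.

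The short arms of chromosomes 20 and 9 were lower in K562 by the most. On 20p the levels were 0.823 and 0.826 in K562 and 1.76 and 1.79 in HepG2, a log2 difference of -1.11 ± 0.011 (SE; limma adjusted p = 4.35e-06). On 9p they were 0.491 and 0.499 in K562 against 0.864 and 0.869 in HepG2, a log2 difference of -0.81 ± 0.013 (limma adjusted p = 8.01e-06). The groups did not overlap on either arm. Chromosome 2 was higher in HepG2 on both arms. On 2q the levels were 0.877 and 0.897 in K562 and 1.37 and 1.38 in HepG2, and the log2 difference was -0.63 ± 0.015. The other arms lower in K562 by at least 0.25 were 20q (-0.52), 14q (-0.46), 2p (-0.45) and 13q (-0.42). With the median of windows in place of the mean, 13q, which holds short amplified stretches in K562, stood at -0.77.

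The arms higher in K562 were led by 19p, 22q and 7q. On 19p the levels were 1.49 and 1.40 in K562 and 0.704 and 0.675 in HepG2, a log2 difference of 1.07 ± 0.042 (limma adjusted p = 6.36e-05). On 7q they were 1.41 and 1.42 in K562 and 0.876 and 0.879 in HepG2, a log2 difference of 0.69 ± 0.0093 (limma adjusted p = 6.77e-06). Neither arm overlapped between the lines. The remaining members were 18p (0.62), 19q (0.62), 1p (0.50), 21q (0.48), 1q (0.47), Xp (0.44), Xq (0.38), 5p (0.31) and 15q (0.30). With the median of windows, 5p (0.19) and Xq (0.247) came out under the limit of 0.25, although both still passed. With all 10 libraries in 1 fit, Xp and Xq did not pass (limma adjusted p = 0.0601 and 0.0868).

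On 22q a short stretch carried the arm. The levels were 1.60 and 1.48 in K562, the widest replicate gap of any K562 arm, and 0.839 and 0.807 in HepG2, for a log2 difference of 0.90 ± 0.045 (limma adjusted p = 0.000129). With the median of its windows in place of the mean, the difference on 22q was 0.06 and did not pass (limma adjusted p = 0.293). The stretch behind this is chr22:18900001-23700000 in hg19, described further on.

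The arm differences were also measured between gamma-H2AX libraries of the lines, none of which entered the test, with HepG2 at 1 h as the only HepG2 library. Against it, K562 at 24 h R2 gave the same direction as the untreated libraries at all 40 arms. The K562 libraries at 1 h, matched in time, each gave it at 36 of the 40: 6p, 8q, 10p and 17q went the other way in R1, and 8p, 8q, 10p and 17q in R2. All 19 arms with a difference of at least 0.25 kept their direction in each of the 3. K562 at 24 h R1, which stood apart from the other K562 libraries at the steps described below, was not among them. Of the 19 arms, 22q alone reversed in that library, at 0.631 against 0.685 in HepG2 gamma-H2AX. Among the arms with smaller differences, 3p, 3q, 4q, 12p and 17p reversed there. On 20p the log2 ratio was -1.11 with K562 at 24 h R2 and -1.44 and -1.49 with the 1 h libraries. On 9p it was -0.90, -0.85 and -0.83. With 24 h R2 the largest shift was on 19q, from 0.62 between the untreated libraries to 0.38, while the 1 h libraries gave 0.59 and 0.71.

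In smaller windows most of the genome differed between the lines. Of 27761 windows of 100 kb, 21980 passed (79.2%; limma, adjusted p under 0.05), 10229 higher (36.8%) and 11751 lower (42.3%) in K562. Of these, 10127 (36.5% of those tested) differed by at least 0.5 on the log2 scale, 4779 higher (17.2%) and 5348 lower (19.3%). Of 2803 windows of 1 Mb, 2370 passed (84.6%), 1116 higher (39.8%) and 1254 lower (44.7%). The 1-Mb window with the highest ratio lay at chr22:19000001-20000000, with 6.33 and 5.84 in K562 and 0.819 and 0.781 in HepG2. These counts depend on the small replicate spread of the 4 libraries. With all 10 libraries in 1 fit, K562 gamma-H2AX 24 h R1 among them, 2358 windows of 100 kb (555 higher, 1803 lower) and 1085 of 1 Mb passed.

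The lines also differed in how flat they were. HepG2 windows gathered around 1 level, with 64.2% and 63.4% of windows between 0.8 and 1.1. Of the K562 windows, 28.6% and 31.2% lay in that range. Within an arm, the log2 distance between the 10th and 90th percentile of windows had a median over arms of 1.03 and 0.865 in K562 and 0.387 and 0.404 in HepG2. Both K562 libraries exceeded both HepG2 libraries in 40 of 41 arms, all but 16p. This breadth was not the same in every K562 library: it was 0.518 in K562 gamma-H2AX 24 h R2 and 1.85 and 2.41 in the K562 gamma-H2AX 1 h libraries. In HepG2 gamma-H2AX it was 0.575.

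**Figure D2:**
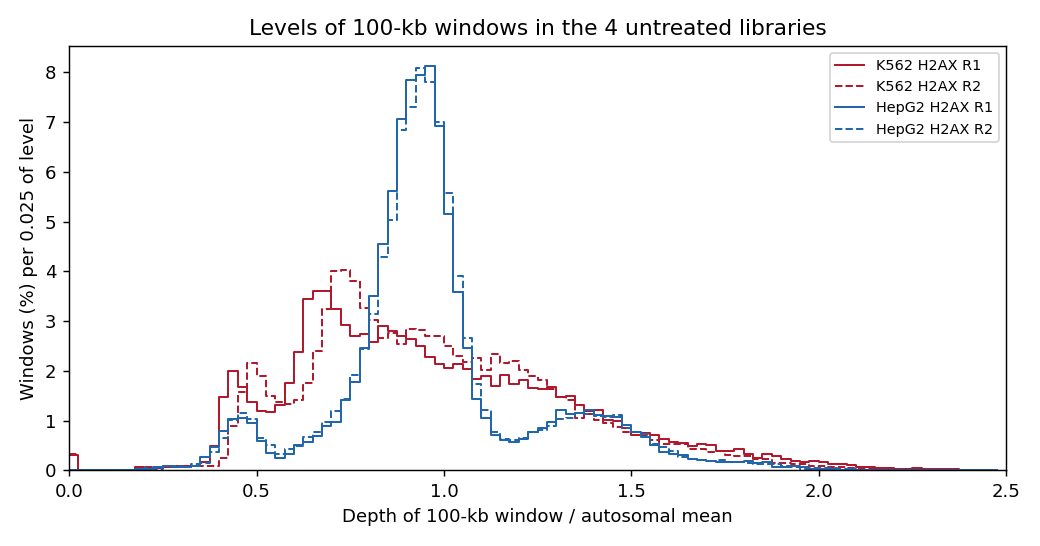
Distribution of levels over the 27761 tested 100-kb windows, as the percent of windows per 0.025 of level, K562 in red and HepG2 in blue, R1 solid and R2 dashed. HepG2 shows a tall peak near its medians of 0.943 and 0.946 with smaller ones beside it, and K562 is spread between a 5th percentile of 0.452 and 0.489 and a 95th percentile of 1.70 and 1.63.

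Chromosome 2 shows the contrast. Across the 39 segments into which the ratio of the lines divided it, K562 ranged from 0.443 to 1.51 in R1 and from 0.493 to 1.52 in R2. Over the same 39 segments HepG2 stayed between 1.18 and 1.51 in R1 and between 1.18 and 1.55 in R2. K562 thus alternated between high and low domains of a few megabases where HepG2 ran nearly level on its rung of 3 units.

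**Figure D3:**
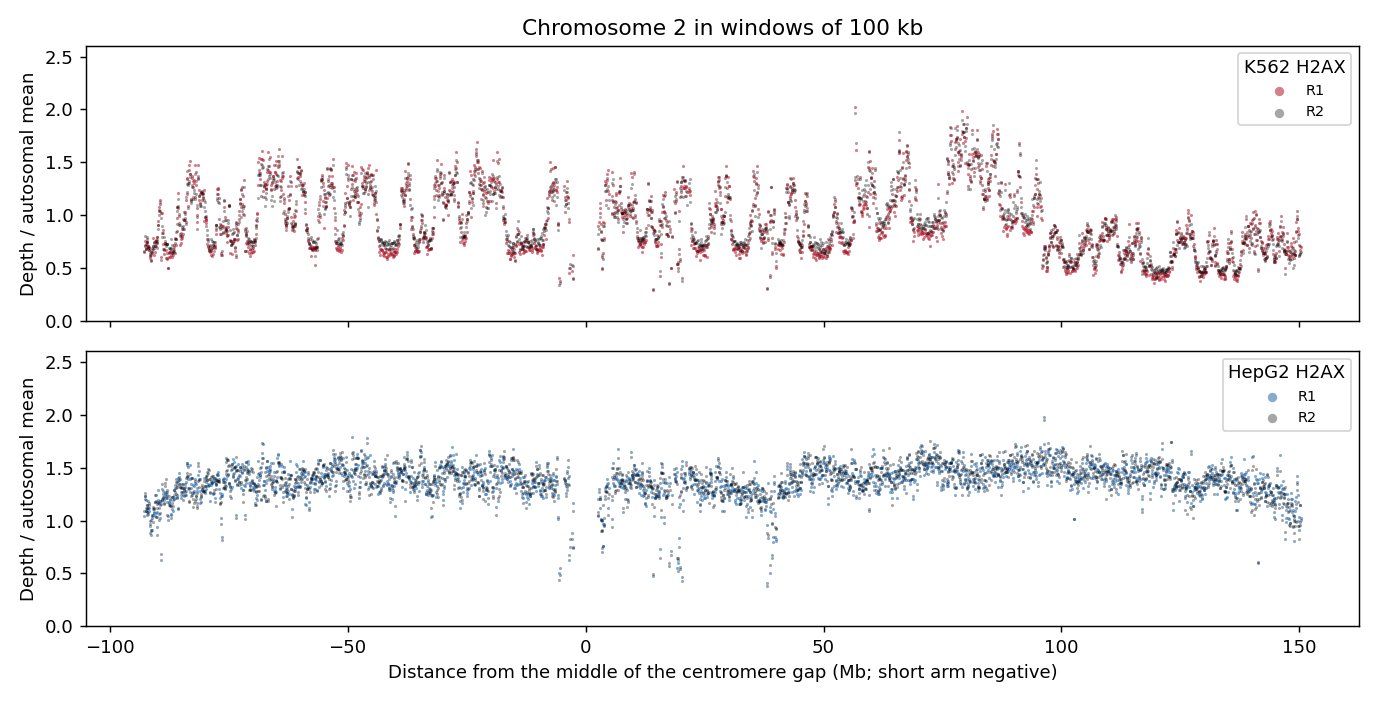
Levels of 100-kb windows along chromosome 2, K562 above and HepG2 below, R1 coloured and R2 in black, by distance from the middle of the centromere gap in Mb. K562 alternates between domains as low as 0.443 and as high as 1.51 (R1 segment levels) while HepG2 stays between 1.18 and 1.51 apart from short dips.

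Steps in the ratio of the lines were located in R1 and then measured in the R2 pair, which the search did not use. The search gave 356 steps between 398 segments, with a median segment of 5.65 Mb. All 356 had the same direction in the R2 pair, and 345 were at least 0.25 on the log2 scale there. A search on the R2 pair alone gave 340 steps, and 292 of the 356 (82.0%) lay within 2 windows of one of them. At 330 steps (92.7%) the K562 level changed more than the HepG2 level, and at 26 the HepG2 level did. In R2 the median absolute log2 change across a step was 0.45 in K562 and 0.054 in HepG2.

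Searches of each line alone gave the same contrast: 496 steps in K562 R1 and 102 in HepG2 R1, all with the same direction in R2 of that line. The few HepG2 steps were largely shared, since the K562 level changed across them by a median of 0.52 on the log2 scale. Across the K562 steps the HepG2 level changed by a median of 0.060.

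The K562 steps fell into sets that behaved differently in K562 gamma-H2AX 24 h R2, a library with another antibody after irradiation. At the 15 largest steps the log2 change there was 1.00 times the change in H2AX R2 as a median, with a range from 0.962 to 1.07. At the other 315 K562 steps the median was 0.419 times (quartiles 0.321 and 0.526), and 307 kept their direction. By size, the median was 0.40 for 193 steps under 0.5 on the log2 scale, 0.423 for 112 steps between 0.5 and 1, and 0.994 for 25 steps over 1. Between the untreated K562 libraries, R1 showed a median 1.21 times the change in R2 at the smaller steps, against 1.00 times at the 15 largest. The steps were searched and kept by their size in R1, which favours larger changes there. Over all 100-kb windows, which no search chose, the spread within arms was also wider in K562 R1 (1.03) than in R2 (0.865). At the 26 HepG2 steps of the same search, HepG2 R1 showed a median 0.949 times the change in R2. How much of the K562 ratio comes from the search was not tested. Between H2AX R2 and 24 h R2, neither used in the search, the smaller steps differed in height while the 15 largest hardly did. In the 1 h gamma-H2AX libraries the 15 largest were somewhat lower, with medians of 0.861 times the change in H2AX R2 in R1 and 0.825 times in R2, all in the same direction.

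The K562 libraries made 1 h after irradiation followed the smaller steps too. Of all 330 K562 steps, 313 in gamma-H2AX 1 h R1 and 273 in 1 h R2 had the direction seen in untreated H2AX, as did 304 in H3K27me3 1 h. In H3K27me3, a mark of Polycomb-repressed chromatin, the change at the 315 smaller steps was a median 3.96 times that in H2AX R2 (quartiles 1.75 and 5.73). Gamma-H2AX 24 h R1 stood apart, with the same direction at only 122 of 330 steps. It was not used further except in the alternative fit of all 10 libraries. Which part of a smaller step is DNA content and which is chromatin cannot be told apart from the histone track alone. These libraries differ in antibody, irradiation and recovery time at once, and the part of each in the differences was not tested.

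**Figure D4:**
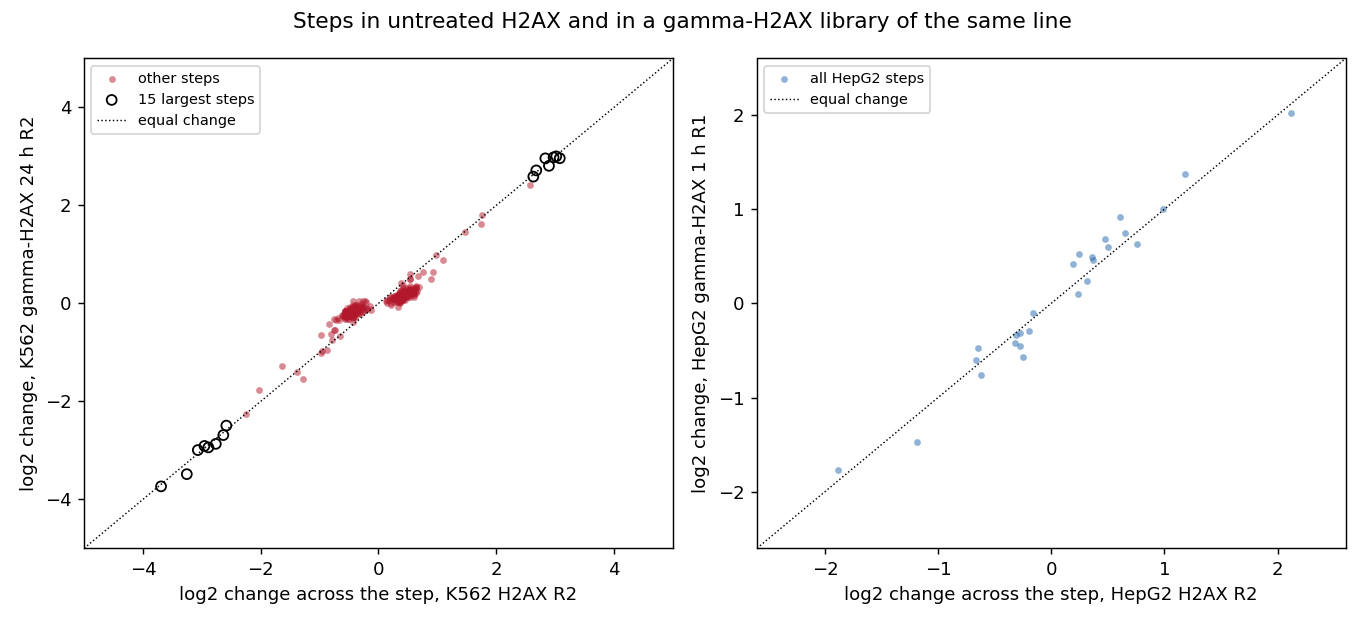
Each point is a step: log2 change across it in untreated H2AX R2 (horizontal) against the change in a gamma-H2AX library of the same line (vertical), K562 24 h R2 on the left and HepG2 1 h R1 on the right, with a dotted line of equal change. The 15 largest K562 steps (black rings) lie along the line, with ratios from 0.962 to 1.07, while most other K562 steps change by less in the 24 h library, and the 26 HepG2 steps have a median ratio of 1.18.

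The 26 steps at which HepG2 changed more had the same direction in HepG2 gamma-H2AX. Their change there was a median 1.18 times that in H2AX R2 (quartiles 0.944 and 1.41), with a range from 0.415 to 2.27. The deepest bounded a dip at chr5:59100001-59400000, where the 3 windows averaged 0.191 and 0.186 in HepG2 between flanks of 0.802 and 0.821 to the left and 0.960 and 0.976 to the right. K562 read 0.704 and 0.792 in the dip, close to its left flank of 0.715 and 0.797 and below its right flank of 0.993 and 1.02. On 6q, HepG2 dropped from about 3 units to about 2 for chr6:68200001-111600000, at 0.955 and 0.964, between 1.44 and 1.48 on one side and 1.46 and 1.49 on the other. It dropped again for chr6:113500001-116300000 (0.967 and 0.982) and then stayed at 1.41 and 1.42 to the end of the arm. The mean of 6q thus covers stretches at about 3 units and at about 2.

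Other HepG2 segments rose above their surroundings. At chr10:19500001-22000000 HepG2 read 1.35 and 1.37 between segments at 0.855 and 0.871 and at 0.910 and 0.921. On 16p the level went from 0.769 and 0.758 to 1.71 and 1.70 over chr16:7000001-14800000, and further windows near 1.7 reached position 23800000, broken by short dips that K562 also showed. The 3-unit mean of 16p thus averages lower and higher stretches and is not a level held along the arm. On 17q the gain began at position 36100001, where the level went from 0.902 and 0.865 to 1.33 and 1.30, so the 3-unit level of that arm rests on its distal part. On 14q, chr14:20300001-43800000 read 1.11 and 1.12 and the next 60.7 Mb 0.917 and 0.924, so the proximal stretch lay between the levels of 2 and 3 units.

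The largest steps of K562 bounded amplified or missing stretches. The highest segment of at least 5 windows, chr9:133600001-134100000, read 11.0 and 10.2 in K562 and 0.884 and 0.821 in HepG2, a log2 ratio of 3.52 in R1 and 3.45 in R2. Next came chr22:18900001-23700000, at 6.44 and 6.04 in K562 and 0.831 and 0.804 in HepG2, with log2 ratios of 2.84 and 2.80. On 13q, chr13:90400001-92500000 read 3.91 and 4.22 in K562 against 0.945 and 0.993 in HepG2, and chr13:92900001-93400000 read 4.03 and 4.48 against 0.972 and 1.06. The 13q arm mean of K562, 0.697 and 0.725, includes these amplified stretches. On the low side of the chromosome 13 edges among the 15 largest steps, K562 medians of 1-kb bins ran from 0.367 to 0.536 in R1. In R2 they ran from 0.418 to 0.478, so high and low segments of K562 alternated there. The other 6 of the 10 highest segments were broader and had log2 ratios from 0.97 to 1.08 in R1: 3 on 7q, the first 4.0 Mb of 18p, chr3:44400001-48200000 and 19.9 Mb of 19p.

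Among the lowest segments, 2 on 9p were close to empty in K562. Over chr9:20800001-26600000 the K562 libraries read 0.0010 and 0.0011 and the HepG2 libraries 0.912 and 0.914. Over chr9:28600001-31600000 they read 0.0008 and 0.0012 against 0.953 and 0.969. The log2 ratios of these segments (-4.19 and -4.21, -4.29 and -4.30) are set by the pseudocount of 0.05 and understate the difference. Between them, chr9:26600001-28600000 read 0.401 and 0.369 in K562, so the gap is broken by 2.0 Mb that K562 kept at a low level.

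Elsewhere K562 was low but not empty. At chr4:160500001-163600000 it read 0.20 and 0.22 against 0.945 and 0.960 in HepG2, with log2 ratios of -1.95 and -1.86. At chr2:209800001-216100000 it read 0.443 and 0.493 against 1.46 and 1.49, where both a low K562 level and the raised chromosome 2 of HepG2 enter the ratio (-1.57 and -1.46). The 19.6 Mb at chr20:6100001-25700000 read 0.687 and 0.721 against 1.78 and 1.82. The remaining members of the 10 lowest were 2 segments flanking the empty stretches of 9p, 2 on 2q and 1 on 13q, with R1 log2 ratios from -1.30 to -1.09.

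In 1-kb bins the edges of the 15 largest steps were placed separately in both K562 libraries. They fell in the same bin in 10 cases and 1 bin apart in the other 5. The empty stretches of 9p ran from 20752001 to the bin before 26590001, and from 28555001 (28554001 in R2) to the bin before 31621001, identical in R1 and R2 but for that one edge. On 22q the drop at 23633001 took the K562 level from 11.1 to 0.768 in R1 and from 9.51 to 0.706 in R2. On 9q the rise at 133607001 went from 1.33 to 12.4 in R1 and from 1.24 to 11.5 in R2. Across the same 15 steps, in 100-kb windows, the HepG2 level changed by -0.37 to 0.37 on the log2 scale in R1 and by -0.33 to 0.28 in R2, against a median absolute change of 2.90 in K562 R2.

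Some K562 steps outside these 15 also kept their height in gamma-H2AX 24 h R2. Of the 315 smaller steps, 22 changed by at least 0.5 in H2AX R2 and held at least 0.75 times that change, a selection made on those values. They included single steps of long segments. At position 188700001 of chromosome 2 the K562 R2 level went from 1.17 to 0.618 and the 24 h level from 1.46 to 0.733. At 48200001 of chromosome 3 it went from 1.85 to 0.911, and the 24 h level from 1.41 to 0.668. At 39600001 of chromosome 18 it went from 1.04 to 0.508, and the 24 h level from 1.21 to 0.592. HepG2 R2 changed by -0.055 to 0.014 on the log2 scale at these 3 places, so the K562 level made these steps. The set also held both sides of a short peak at chr13:108500001-108800000, with 3.05 in K562 R2, and of the low segment on 4q.

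Short stretches near 0 in a single line were found at 1 kb, as runs of at least 5 kb in which both libraries of that line read under 0.1 and both of the other at least 0.4, joined within 20 kb. K562 had 33 such loci, covering 9463 kb in all and 680 kb outside the 2 on 9p. HepG2 had 22, covering 690 kb. All 33 also averaged under 0.1 in K562 gamma-H2AX 24 h R2, where the highest outside 9p was 0.047, and all 22 in HepG2 gamma-H2AX, where the highest was 0.051. Those gamma-H2AX libraries were not used to find the loci.

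Outside 9p the longest of the K562 loci was chr10:103604001-103796000, with 191 kb near 0, at 0.0008 and 0.0003 in K562 and 1.05 and 0.989 in HepG2. It was followed by chr10:126642001-126727000, where both K562 libraries were listed at 0 to 4 decimals, and chr5:180376001-180430000. In HepG2 the longest was chr5:59188001-59381000, with 189 kb at 0.0010 and 0.0004 against 0.706 and 0.782 in K562, which places the dip of the 100-kb map. Then came chrX:10570001-10709000, at 0.0014 in both HepG2 libraries against 0.693 and 0.733, and chr6:78968001-79034000, at 0.0029 and 0 against 0.592 and 0.718. Most loci were short, with a median of 10 kb in K562 outside 9p and 6 kb in HepG2. Loss of the DNA, and differences from the reference or in how reads were aligned and filtered, could not be told apart with these tracks.

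Differences finer than the segments were tested in 10-kb windows after the median of the surrounding segment was removed from each library. Of 274062 windows, 21835 passed (7.97%; limma, adjusted p under 0.05), 14282 higher (5.21%) and 7553 lower (2.76%) in K562, and in 21808 both K562 libraries lay on the same side of both HepG2 libraries. The number was unstable: 5220 windows (1.9%) passed when a running median over about 1 Mb was removed in its place. Without K562 R1 6212 passed, without K562 R2 12146, and without HepG2 R2 13385. Windows that passed by both ways of removal numbered 4309 (1.57%), 2996 higher and 1313 lower. They formed 3519 runs, of which 3134 were single windows.

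The 2996 windows higher in K562 had medians of 1.39 and 1.36 in K562 and 0.777 and 0.778 in HepG2, against 0.914 and 0.929 and 0.951 and 0.952 over all windows tested. The same windows read 1.83 and 1.92 in K562 gamma-H2AX at 1 h (0.766 and 0.734 over all tested) and 0.11 in K562 H3K27me3 (0.208). The 1313 windows lower in K562 read 0.801 and 0.811 in K562 and 1.19 in both HepG2 libraries. They had the opposite leaning in the other K562 libraries, with 0.637 and 0.527 in gamma-H2AX at 1 h and 0.469 in H3K27me3. All of these are levels before the segment median was removed, so they hold segment level and local signal together. Windows where K562 H2AX was locally high against HepG2 thus tended to be high in 1 h gamma-H2AX and low in H3K27me3. That is a description of libraries of the same line and not a test. The leaning in H3K27me3 applies to these local windows and not to the segments. At 304 of the 330 K562 steps H3K27me3 changed in the same direction as H2AX.

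With the segment median alone removed, the larger set of calls, the longest runs of windows passing in the same direction were on chromosomes 1, 3 and 7. Few of their windows passed both ways on chromosomes 1 and 7: 10 of 34 and 8 of 32 in the 2 runs on chromosome 1 and 10 of 30 on chromosome 7, against 25 of 30 on chromosome 3. At chr1:192910001-193250000 K562 read 1.54 and 1.55 and HepG2 0.950 and 0.951. At chr1:220130001-220450000 the levels were 1.77 and 1.65 in K562 and 0.892 and 0.919 in HepG2, and the 1 h gamma-H2AX libraries read 3.23 and 3.52. The run at chr3:59770001-60070000 went the other way, with 0.306 and 0.313 in K562 and 1.01 and 1.04 in HepG2. There gamma-H2AX 24 h R2 read 0.350, slightly above both untreated K562 libraries.

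The 10 highest and 10 lowest single windows were mostly places where a line had no reads rather than graded differences. At chr6:78970001-78980000 both HepG2 libraries were listed at 0 and K562 read 0.688 and 0.727. At chr4:9180001-9190000 both K562 libraries were listed at 0 and HepG2 read 0.972 and 0.887. The window at chr6:79010001-79020000, also among the 20, lay in the same HepG2 locus. Several of the 20 lay beside a step, and 3 of these, at chr9:134100001-134110000, chr13:93840001-93850000 and chr13:94080001-94090000, no longer passed with the running median removed (limma adjusted p = 0.219, 0.362 and 0.749). The window at chr17:16720001-16730000 was graded: K562 read 1.08 and 0.971 and HepG2 0.261 and 0.210, and K562 H3K27me3 read 4.01 there.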

How the data were processed

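Per the submitters' processing notes the build was hg19 and the tools were MACS2, SAMtools and BWA 0.7.12, with no role or setting given. The deposited tracks hold read coverage (signal) as mean depth in 1-kb bins, unscaled. Peak lists were not used. Each track was divided by its autosomal mean, averaged into 10-kb, 100-kb and 1-Mb windows holding 50% or more of their bins, with a mean level of at least 0.25 over the 4 libraries, and tested as log2(level + 0.05), which understates differences near 0. Arms, split at the longest run of absent bins, had no pseudocount; 21p, mostly at 0, and chromosome Y were left out. The test was limma 3.58.1 (R 4.3.3) on the 4 libraries, with 2 residual degrees of freedom and a mean-variance trend except for arms; at 10 kb the trend followed the level before removal. P-values measure only how far these libraries spread, which could be technical. With 2 libraries against 2, an exact permutation test of 1 value could not go below 0.333.

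Segments came from optimal partitioning of the 100-kb log2 ratio of the R1 libraries within arms (at least 3 windows, penalty factor 15, steps under 0.25 merged). Changes across a step are between up to 10 windows on either side. Both procedures were run on simulated data with noise drawn independently for each window, so their errors on these tracks are not known from it. Named are arms differing by at least 0.25, the 10 highest and 10 lowest segments of at least 5 windows, the 15 largest steps, and the 10 highest and 10 lowest 10-kb windows, at most 1 in each Mb of coordinates counted from the chromosome's start, so that neighbours across such a border can both be named. Members and lists were chosen with earlier results of these data known. The near-0 loci, the searches of single lines, the ladder and the steps kept at 24 h were added after seeing the data. Genes were not assigned, since no hg19 annotation was used here.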

Additional observations from a re-analysis of the deposited data

How the results depend on the processing

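Other pseudocounts (0.01 and 0.2), median-of-ratios scaling, no filter on low values and a stricter minimum of bins kept the counts of calls within 1.5 times, and none of the named arms, 20 segments and 20 windows of 10 kb reversed under the alternatives run for each. The sizes of segment ratios did move. With a pseudocount of 0.2, chr4:160500001-163600000 went from -1.91 to -1.46, and the empty chr9:28600001-31600000 from -4.30 to -2.53. HepG2 segments, single steps, runs and near-0 loci were not each recomputed. At 100 kb, median-of-ratios scaling shifted the K562 libraries by 0.032 and 0.011 on the log2 scale and the HepG2 libraries by -0.022 and -0.025. It gave 22004 windows of 100 kb, 10999 higher and 11005 lower, and 39 arms, 24 higher and 15 lower. With all 10 libraries in 1 fit, 2358 windows of 100 kb, 1085 of 1 Mb and 25 arms passed. Xp and Xq no longer passed (limma adjusted p = 0.0601 and 0.0868). That fit takes its spread also from the irradiated libraries, among them K562 gamma-H2AX 24 h R1, which stood apart at the steps. Leaving out a library, so that the lone library of a line is assumed to vary like the other line, gave 19726 to 21687 windows of 100 kb, 2148 to 2460 of 1 Mb, 38 to 40 arms and 6212 to 16379 windows of 10 kb. With the running median removed, 5220 windows of 10 kb passed. The number of steps was 755 with a penalty factor of 5 and 156 with 45, so it describes the search and not the cells. The replicates share only a number. With it as a replicate block, 22926 windows of 100 kb, 2547 of 1 Mb, 40 arms and 24354 windows of 10 kb passed, and the R1 minus R2 differences of the 2 lines correlated at r = 0.304 over the 27761 windows. A 10-kb window held about 157 to 168 reads, against 1570 to 1678 at 100 kb, which limits the precision of local differences. The kb near 0 in a single line moved to 9218 in K562 and 608 in HepG2 with a limit of 0.05.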
